A study of Mus musculus with 6 samples.

Results

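The chemokine transcripts of activated lung group 2 innate lymphoid cells (aILC2s) are described here: *Ccl1*, *Ccl3*, *Ccl4*, *Ccl5*, *Ccl17*, *Ccl22*, *Cxcl2*, *Cxcl3*, *Xcl1* and *Cxcl16*. They were chosen by symbol as chemokines that aILC2s can make, with earlier results of these data known. All 10 were found among the 16381 genes of the deposited table. In the study, WT BALB/c mice received 0.5 µg IL-33 intranasally each day for 3 days, and ILC2s were sorted from the digested lungs on day 4 as live CD45+, lineage-negative, ST2+, CD127+ cells. The cells then spent 24 h in culture with melatonin at 250 µM or with the DMSO vehicle, and bulk RNA was sequenced in 3 samples per group. Both groups were thus cells from IL-33-exposed lungs, sorted by the same gate and cultured for the same time. The library names of the groups form separate number runs, and only the vehicle names carry an extra suffix. The labels do not say why, so a difference in handling cannot be told apart from treatment. The labels do not say whether the 3 samples of a group came from separate animals, so the p-values measure only the spread between these samples, whatever its source.

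Chemokines are small secreted proteins that bind G protein-coupled receptors on leukocytes and direct their migration. Innate lymphoid cells recruit other cells partly through them: CCL17 and CCL22 attract CCR4+ type 2 helper T cells, CCL1 attracts CCR8+ cells, CXCL2 and CXCL3 attract neutrophils, and XCL1 attracts XCR1+ dendritic cells. Most chemokine genes lie in clusters and are switched on quickly by inflammatory signals.

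Values are normalized counts, that is, estimated reads scaled by each sample's size factor, and estimated counts totalled 17056267 to 20511700 per sample. A fold change is the difference in log2 (normalized count + 1), melatonin minus vehicle, with its standard error (SE), from a limma fit over 14419 genes, and a call is an adjusted p under 0.05. The added 1 understates the change of low genes. Of 15 ILC2 markers, all 15 were listed, among them *Gata3*, which did not pass the test, and *Il1rl1*, the ST2 gene, which was higher with melatonin, while 2 in all were higher and 9, including *Il13* and *Klrg1*, were lower, against 24.5% and 24.7% of all genes tested. The methods state female mice, yet the Y-linked *Ddx3y* was between 746 and 1071 in all vehicle samples and in melatonin replicate 1 and at 0 in melatonin replicates 2 and 3, where *Xist* was 579 and 1091. Sex-linked transcripts therefore differed between samples and partly followed the treatment. Results are also given for the 4 samples with Y-linked transcripts, of which only melatonin replicate 1 is a melatonin sample. None of the 10 chemokine genes lies on a sex chromosome.

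Chemokine transcripts were lower in melatonin-treated aILC2s. Since the 10 genes were chosen with earlier results of these data known, their counts beside all genes are a description and no test. In the fit, 9 of the 10 genes were lower and 0 were higher, where 24.7% of all genes tested were lower and 24.5% were higher. None of the 10 was higher at an unadjusted p under 0.05, and voom on the estimated counts also gave 9 lower and 0 higher. All 10 had every melatonin value below every vehicle value, against 30.3% of all genes tested. The median log2 fold change of the 10 was -3.83, beside -0.00 over all genes tested. It was -3.86 with the 2 genes at 0 in all melatonin samples set to a floor of 3 reads over the group. In 8 of the 10 it was below -2, a level that 3.70% of all genes tested passed. The 10 genes were low to moderate transcripts even with vehicle, with means from 11.9 to 320 and ranks from percentile 9.62 to 46.3 of the genes tested. Of them, 5 (*Ccl1*, *Ccl3*, *Ccl4*, *Ccl17* and *Xcl1*) passed the filter on low values through vehicle samples only. The filter thus favoured a lower value with melatonin in these 5. In a bulk sample, fewer cells that make a chemokine and less of its RNA per cell cannot be told apart.

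**Figure D1:**
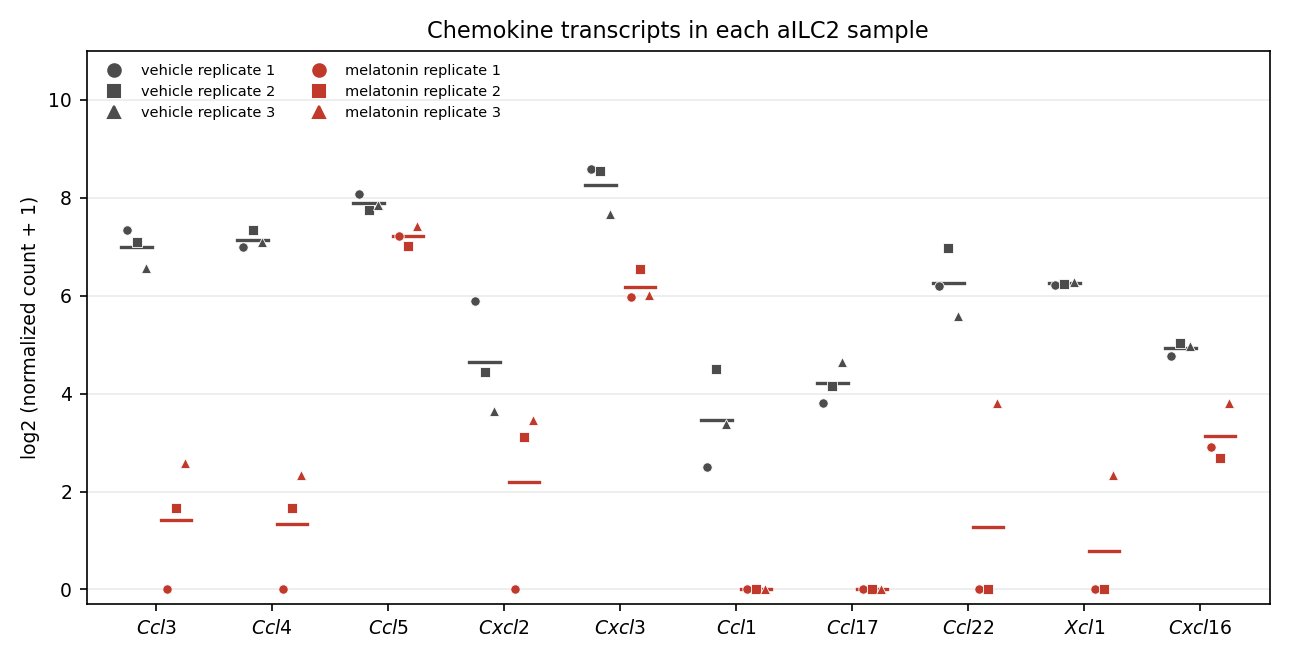
Level of each chemokine transcript in each sample, as log2 of the normalized count plus 1. Points are samples, with a shape for each replicate number, and short lines are group means. Melatonin samples (red) lie below all vehicle samples (grey) for each of the 10 genes, with the smallest difference of group means at *Ccl5*.

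*Ccl3* and *Ccl4* encode MIP-1α and MIP-1β, which draw monocytes, T cells and NK cells, and CCL3 binds CCR1. *Ccl3* (chr11:83538670-83540191, minus strand, GRCm39) was 161, 135 and 93.4 in vehicle replicates 1 to 3 and 0, 2.19 and 5.03 in melatonin replicates 1 to 3. The lowest vehicle value was far above the highest melatonin value. *Ccl3* fell by 5.57 on the log2 scale (SE 0.61, adjusted p = 0.00022). In estimated reads the vehicle samples held 405 and the melatonin samples 7, a ratio of 55.8 (95% exact interval 26.8 to 140, counting error only). *Ccl4*, its neighbour (chr11:83553383-83555509, plus strand), was 126, 161 and 135 with vehicle and 0, 2.19 and 4.02 with melatonin. The 2 genes had the same estimated count in melatonin replicates 1 and 2 and differed by 1 read in replicate 3. *Ccl4* fell by 5.81 (SE 0.56, adjusted p = 0.00012), with 436 against 6 estimated reads and a ratio of 70.1 (31.9 to 192). Without melatonin replicate 1 the changes of *Ccl3* and *Ccl4* were -4.86 and -5.14, and without melatonin replicate 3 they were -6.16 and -6.30.

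*Ccl5* encodes RANTES, a ligand of CCR1 and CCR3 that draws eosinophils and T cells. It lies in the same cluster (chr11:83416602-83425942, minus strand). Its values were 267, 213 and 229 with vehicle and 148, 128 and 171 with melatonin. The groups did not overlap, but the distance was small, and the melatonin mean was 63.1% of the vehicle mean. *Ccl5* fell by 0.66 (SE 0.16, adjusted p = 0.0092), the smallest fitted change of the 10, and the ratio of estimated reads was 1.58 (1.40 to 1.78). A correction for transcript length moved the change to -0.31 and the adjusted p to 0.063, so the call of *Ccl5* depends on that choice.

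The interval from *Ccl5* to *Ccl4* spans 138908 bases and holds 5 annotated protein-coding genes, all listed: *Ccl5*, *Ccl9*, *Ccl6*, *Ccl3* and *Ccl4*. *Ccl9* and *Ccl6* encode CCR1 ligands of myeloid cells. *Ccl9* was 259, 196 and 143 with vehicle and 7.47, 60.1 and 78.4 with melatonin, a log2 fold change of -2.49 (SE 0.72, adjusted p = 0.019). *Ccl6* was 237, 230 and 263 with vehicle and 21.5, 108 and 124 with melatonin, a change of -1.86 (SE 0.55, adjusted p = 0.022). Thus all 5 genes of the interval were lower, from -0.66 at *Ccl5* to -5.81 at *Ccl4*. The calls of *Ccl9* and *Ccl6* were lost in a fit without the mean-variance trend (adjusted p = 0.068 and 0.072). They were also lost without vehicle replicate 2 (0.057 for each), that of *Ccl9* without vehicle replicate 1 (0.058) and that of *Ccl6* without vehicle replicate 3 (0.065). Without melatonin replicate 1 their changes shrank to -1.48 and -1.06.

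*Cxcl3* and *Cxcl2* encode CXC chemokines that draw neutrophils through CXCR2. *Cxcl3* (chr5:90933962-90937459, plus strand) was 383, 375 and 201 with vehicle and 61.6, 91.8 and 63.3 with melatonin. It was above 0 in every melatonin sample, which among the other members held only for *Ccl5* and *Cxcl16*. *Cxcl3* fell by 2.10 (SE 0.27, adjusted p = 0.00045), and the ratio of estimated reads was 4.54 (3.91 to 5.28). *Cxcl2* (chr5:91051730-91053797, plus strand) was 58.0, 20.6 and 11.5 with vehicle and 0, 7.65 and 10.1 with melatonin. The groups did not overlap, but the lowest vehicle value and the highest melatonin value nearly met. Its log2 fold change of -2.46 (SE 0.94) did not pass the test at an adjusted p of 0.055, and it was the only one of the 10 that did not. It passed with a pseudocount of 10 (adjusted p = 0.039) and without melatonin replicate 3 (-3.10, adjusted p = 0.035). Over the alternatives with more than 1 melatonin sample, its adjusted p ran from 0.035 to 0.18. The Y-transcript samples, with replicate 1 as the only melatonin sample, gave a change of -4.65. The change shrank to -1.37 without melatonin replicate 1 (adjusted p = 0.10) and to -1.85 without vehicle replicate 1 (adjusted p = 0.18). *Cxcl1*, which lies between them, was 15.9, 0.94 and 5.25 with vehicle and 0, 1.09 and 0 with melatonin, a change of -2.20 that did not pass (SE 0.93, adjusted p = 0.077).

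*Ccl17* and *Ccl22* encode TARC and MDC, the CCR4 ligands associated with type 2 inflammation. *Ccl17* (chr8:95534358-95538664, plus strand) was 13.1, 16.9 and 24.1 with vehicle and 0 in all 3 melatonin samples. In estimated reads this is 14, 18 and 23 against none, 17.7-fold lower when the melatonin group is set to a floor of 3 reads in total. The exact 95% lower limit of the ratio was 13.9 (counting error only). The fitted change was -4.21 (SE 0.57, adjusted p = 0.00056). *Ccl22* (chr8:95471226-95478327, plus strand) was 72.8, 125 and 47.2 with vehicle and 0, 0 and 13.1 with melatonin. Melatonin replicate 3 alone carried *Ccl22* reads, 13 of them, against 256 in the vehicle samples, a ratio of 19.0 (10.9 to 36.1). *Ccl22* fell by 4.99 (SE 0.96, adjusted p = 0.0030), and its change was -6.26 without melatonin replicate 3 and -4.35 without melatonin replicate 1 or 2.

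The *Ccl22* to *Ccl17* interval of 67439 bases holds 1 other protein-coding gene, *Cx3cl1*, which encodes fractalkine, a membrane-anchored chemokine. *Cx3cl1* was 0, 3.75 and 2.10 with vehicle and 19.6, 12.0 and 14.1 with melatonin. Its mean went from 1.95 to 15.2 (adjusted p = 0.0095). It passed the filter on low values through melatonin samples only, so it had to differ, and its call was lost with the Y-transcript samples alone (adjusted p = 0.058).

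*Ccl1* encodes I-309, the CCR8 ligand. It was the scarcest member, at 4.67, 21.5 and 9.44 with vehicle and 0 in all melatonin samples. Its 37 estimated vehicle reads were 5, 23 and 9, so that replicate 2 held most of them. It was 11.9-fold lower against the same floor, with an exact 95% lower limit of 9.20 (counting error only). The fitted change of *Ccl1* was -3.46 (SE 0.72, adjusted p = 0.0045). Without vehicle replicate 2, *Ccl1* fell below the filter on low values and had no fitted value. The annotated gene runs over chr11:82067483-82196516 on the minus strand, with a longest transcript of 2126 bases and a canonical transcript of 620 bases, so its length and level per length are uncertain.

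*Xcl1* encodes lymphotactin, a chemokine of T cells, NK cells and innate lymphoid cells that attracts cross-presenting dendritic cells through XCR1. *Xcl1* (chr1:164759213-164763096, minus strand) was 73.7, 75.0 and 76.6 with vehicle, the tightest vehicle values of the 10 with an SD of 1.43. It was 0, 0 and 4.02 with melatonin. The groups were far apart, and the log2 fold change was -5.47 (SE 0.64, adjusted p = 0.00028), or -6.25 without melatonin replicate 3. The estimated reads were 232 against 4, a ratio of 55.9 (21.5 to 207).

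*Cxcl16* encodes a chemokine that is made as a membrane protein, can be shed by ADAM10 and ADAM17, and binds CXCR6. *Cxcl16* (chr11:70344517-70352620, minus strand) was 26.1, 31.9 and 30.4 with vehicle and 6.54, 5.46 and 13.1 with melatonin. All melatonin samples kept some reads, and none reached the vehicle range. It fell by 1.78 (SE 0.40, adjusted p = 0.0061), a ratio of 3.51 (2.23 to 5.70). The gene overlaps *Med11* on the opposite strand, which was between 868 and 937 with vehicle and between 570 and 587 with melatonin. No source used here says that reads were counted by strand, so *Cxcl16* values are uncertain to that extent. Long noncoding RNA genes with no listed value also overlap *Ccl1*, *Ccl3*, *Ccl5* and *Xcl1* on the opposite strand.

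**Figure D2:**
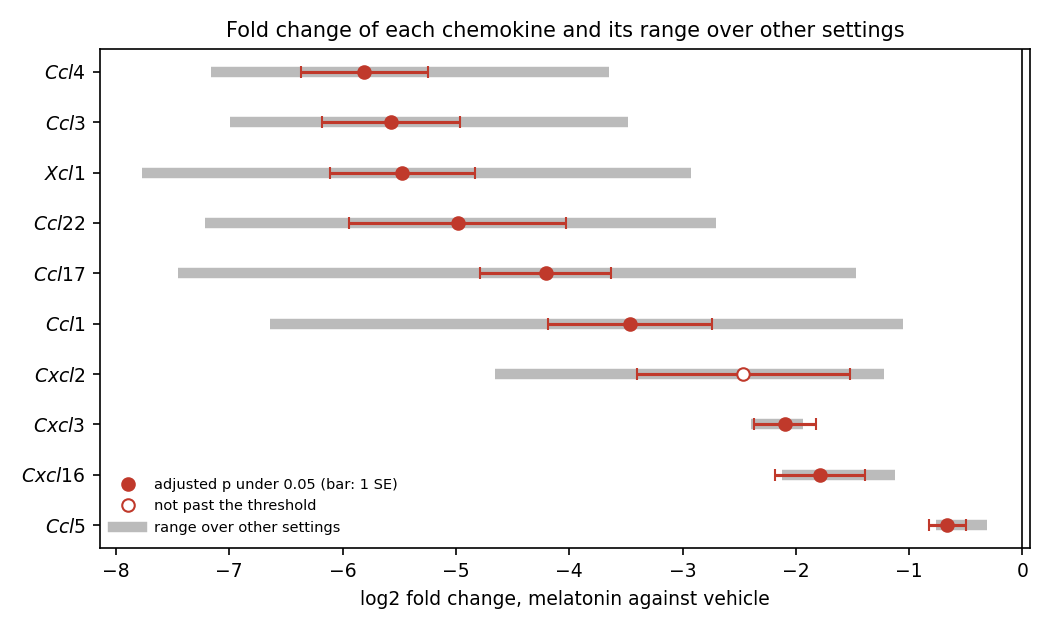
Log2 fold change of each chemokine, melatonin against vehicle, with 1 SE (red) and the lowest and highest value over the other settings tried (grey). Filled points passed an adjusted p of 0.05, *Cxcl2* did not, and all grey ranges stay below 0.

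The ranges were wide for genes at 0 in melatonin samples. Those of *Ccl1*, *Ccl17* and *Xcl1* moved with the pseudocount, since a pseudocount of 0.1 or 10 sets how far a value of 0 counts: *Ccl1* ran from -6.64 to -1.06, *Ccl17* from -7.46 to -1.47 and *Xcl1* from -7.77 to -2.93. *Cxcl3*, which had reads in all samples, ran from -2.40 to -1.94. In melatonin replicates 1, 2 and 3, 7, 4 and 2 of the 10 genes were at 0, where a count of 0 still allows up to 2.80, 3.28 and 3.02 normalized counts. Melatonin replicate 1 was the lowest melatonin sample, or tied for it, in 8 genes, and replicate 3 was the highest alone in 7. Replicate 1 is also the only melatonin sample with Y-linked transcripts, and compared alone with the vehicle samples it gave all 10 genes as lower, with the assumption that it varies as the vehicle samples do. Summed over the 10 genes, the level was 1184, 1174 and 858 normalized counts with vehicle and 217, 237 and 283 with melatonin.

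Levels of different genes were compared per kb of the longest annotated transcript. With vehicle, *Ccl5* was the highest at 353 ± 41.7 normalized counts per kb (SD, n = 3), and its samples did not overlap those of the next gene. With the length of all its exons, *Ccl5* was at 230 ± 27.1 and its samples overlapped those of *Ccl4*. *Ccl4* (205 ± 26.5), *Ccl3* (167 ± 43.7) and *Xcl1* (144 ± 2.74) followed, and neighbours in that order overlapped. *Cxcl3* (91.4 ± 29.3) stood below *Xcl1* and above *Ccl22* (36.5 ± 17.6) without overlap. The remaining genes, *Ccl17* (27.7), *Cxcl2* (14.5), *Cxcl16* (7.04) and *Ccl1* (5.59), were not separated from their neighbours in the order. With melatonin, *Ccl5* (223 ± 32.2) stood above *Cxcl3* (20.7 ± 4.84), and *Cxcl3* stood above all others, whose means were 3.10 or less. The place of *Cxcl3* depends on the transcript assumed, since its canonical transcript of 1016 bases gives 315 ± 101 per kb with vehicle, next to *Ccl5* at 441 ± 52.1.

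The make-up of the chemokine transcripts therefore differed between the groups. *Ccl5* made up 35.4%, 29.3% and 36.5% of the summed level per kb in vehicle replicates 1 to 3 and 92.1%, 83.7% and 83.1% in melatonin replicates 1 to 3. The share of *Ccl4* went from 19.6% ± 2.93 to 1.10% ± 0.98, that of *Ccl3* from 15.7% ± 2.76 to 1.11% ± 1.06, and that of *Xcl1* from 13.8% ± 1.63 to 0.83% ± 1.44. The share of *Cxcl3* was 8.56% ± 2.10 and 8.22% ± 2.91, or 9.75% ± 2.32 and 11.8% ± 4.05 with the length of all exons. With the length of all exons the vehicle share of *Ccl5* was 26.4%, 21.4% and 27.3%, next to *Ccl4* at 22.3% ± 3.23, and its melatonin share was 80.7% ± 6.71. With canonical transcripts *Ccl5* went from 31.8% to 75.6% and *Cxcl3* from 22.1% to 19.6%. Within each sample, the log2 level was also taken relative to *Ccl5*. For 8 of the 9 other genes it was lower in every melatonin sample than in every vehicle sample, and *Cxcl2* was the exception. *Ccl5* had the smallest fitted change, so this restates the fold changes and is no separate test. *Ccl1*, *Ccl3*, *Ccl4*, *Ccl17* and *Xcl1* also passed the filter on low values through vehicle samples only. For each of those 8 the exact two-sided permutation p was 0.1, the smallest that 3 samples against 3 allow, before any adjustment over the 9 genes compared. That p follows from the separation itself and adds no support.

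**Figure D3:**
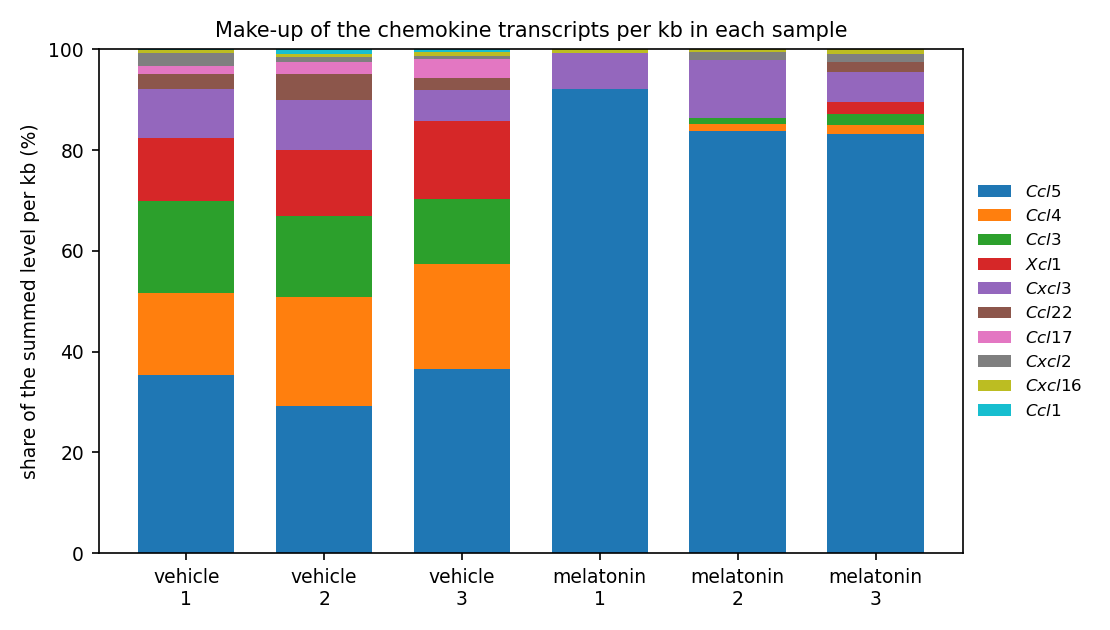
Share of each chemokine, in percent, in the summed level per kb of the longest transcript, for each of the 6 samples. *Ccl5* (blue) takes between 29.3% and 36.5% with vehicle and between 83.1% and 92.1% with melatonin, while *Ccl4*, *Ccl3* and *Xcl1* shrink to a few percent or less.

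The 5 genes most like *Ccl5* over the 6 samples, by Pearson correlation of log2 values over 9988 genes averaging 100 or more, were *Extl3* (0.998), *Ikzf2* (0.997), *mt-Co3* (0.996), *Pabpc1* (0.995) and *Spn* (0.995). These are descriptions over few points that share the same libraries and treatment. All 5 were lower with melatonin, from *Spn* at -0.40 to *mt-Co3* at -1.29. Their direction follows from their choice by likeness to *Ccl5*, itself lower, and is no further result.

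Promoter windows from 250 bases before to 50 bases after the start site were present in the RefSeq table (GRCm38.p6) for 7 of the 10 genes: *Ccl1*, *Ccl3*, *Ccl17*, *Ccl22*, *Cxcl2*, *Cxcl3* and *Xcl1*. *Ccl4*, *Ccl5* and *Cxcl16* were not matched. The NF-κB motif, searched on both strands, was found in 3 of the 7 windows and in 8.46% of all 32841 windows of this length. The windows of these 3 genes are shown with the NF-κB match in capitals, together with that of *Ccl3*, which was at or near 0 with melatonin and holds no match. In each of the 3, matches on the plus and minus strands overlap by all but 1 base and form 1 stretch of 11 bases.
*Ccl1*, chr11:82179763-82180062, minus strand: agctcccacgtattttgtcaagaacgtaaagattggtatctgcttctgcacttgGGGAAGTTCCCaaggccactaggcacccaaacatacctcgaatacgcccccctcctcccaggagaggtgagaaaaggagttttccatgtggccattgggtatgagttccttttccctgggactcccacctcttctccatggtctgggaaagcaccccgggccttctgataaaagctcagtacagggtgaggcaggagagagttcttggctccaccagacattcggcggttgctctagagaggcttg
*Cxcl2*, chr5:90903649-90903948, plus strand: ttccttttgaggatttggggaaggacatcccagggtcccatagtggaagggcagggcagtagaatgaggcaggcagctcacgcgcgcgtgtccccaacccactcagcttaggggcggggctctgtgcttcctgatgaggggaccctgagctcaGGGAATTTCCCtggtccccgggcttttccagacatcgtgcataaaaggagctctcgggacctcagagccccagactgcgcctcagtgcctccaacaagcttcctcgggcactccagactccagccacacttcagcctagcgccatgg
*Cxcl3*, chr5:90785851-90786150, plus strand: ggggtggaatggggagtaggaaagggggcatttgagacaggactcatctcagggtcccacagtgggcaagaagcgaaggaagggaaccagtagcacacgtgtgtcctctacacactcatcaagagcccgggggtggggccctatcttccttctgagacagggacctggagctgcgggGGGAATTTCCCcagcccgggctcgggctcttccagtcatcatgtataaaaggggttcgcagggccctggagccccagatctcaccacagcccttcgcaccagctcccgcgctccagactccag
*Ccl3*, chr11:83649329-83649628, minus strand: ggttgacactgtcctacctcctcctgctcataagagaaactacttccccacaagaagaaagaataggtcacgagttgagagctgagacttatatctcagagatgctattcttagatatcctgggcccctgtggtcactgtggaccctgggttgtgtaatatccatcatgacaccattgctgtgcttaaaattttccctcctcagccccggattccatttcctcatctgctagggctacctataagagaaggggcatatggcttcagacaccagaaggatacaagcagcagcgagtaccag

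The stretch begins 196 bases before the start site in *Ccl1*, 97 before in *Cxcl2* and 73 before in *Cxcl3*, and the letters of the first match, GGGAATTTCC, are the same in *Cxcl2* and *Cxcl3*. The STAT6 motif was found in *Ccl17* alone, as TTCTCTGGAA starting 154 bases before the start site, and in 6.95% of all windows. TATAAA on the gene's strand was found in *Cxcl3* and in 8.32% of all windows. The AP-1 motif TGANTCA and the antioxidant response element TGACNNNGC, the motif of NRF2, were found in none of the 7 on either strand, and in 7.81% and 12.4% of all windows. A match is a match of letters, and no binding was measured here.

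Of 22 genes for factors known to drive or restrain inducible chemokine transcription, 21 were tested, with 7 higher and 4 lower, against 24.5% and 24.7% of all genes tested. *Nfkb1*, which encodes the NF-κB subunit p50 and its precursor p105, was 6760, 6900 and 6744 with vehicle and 2621, 2959 and 2894 with melatonin, a change of -1.27 (SE 0.08, adjusted p = 1.8e-05). *Irf4*, a factor of lymphocyte activation, was 3026, 2728 and 2992 with vehicle and 468, 1249 and 1328 with melatonin, a change of -1.66 (SE 0.34, adjusted p = 0.0037). *Egr1*, an immediate early factor, went the other way, from 781, 748 and 804 to 2591, 2539 and 2432, a rise of 1.70 (SE 0.08, adjusted p = 4.4e-06). Among the other NF-κB family genes, *Rel* was higher (0.97, adjusted p = 0.014), and *Rela* (0.39, adjusted p = 0.062), *Relb* (0.67, adjusted p = 0.051) and *Nfkb2* (0.39, adjusted p = 0.16) did not pass.

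Receptors of these chemokines were also measured in the same samples. *Ccr3*, *Cxcr2* and *Xcr1* are also among the markers of other cell types given below, and which cells carried the receptors was not tested. Of 7 receptors, 4 were lower and 3 were not called, where 24.7% of all genes tested were lower. *Ccr1*, the receptor of CCL3 and CCL5, was 1228, 1177 and 1033 with vehicle and 34.6, 66.6 and 97.5 with melatonin, a change of -4.21 (SE 0.31, adjusted p = 4.1e-05). *Ccr3*, the receptor of CCL5 best known from eosinophils, was 331, 307 and 270 with vehicle and 8.40, 12.0 and 20.1 with melatonin, a change of -4.46 (SE 0.30, adjusted p = 2.7e-05). *Ccl3*, *Ccl5* and their receptors *Ccr1* and *Ccr3* were thus lower together in these samples.

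*Ccr8*, the CCL1 receptor, was 1892, 1984 and 1725 with vehicle and 889, 872 and 975 with melatonin, a change of -1.03 (SE 0.09, adjusted p = 7.7e-05). *Cxcr2*, the CXCL2 and CXCL3 receptor of neutrophils, was scarce, at 8.40, 10.3 and 13.6 with vehicle and 1.87, 0 and 3.02 with melatonin, a change of -2.36 (SE 0.67, adjusted p = 0.017). It passed the filter on low values through vehicle samples only, so the filter favoured a lower value with melatonin. Its call was lost without vehicle replicate 2 (adjusted p = 0.054) or 3 (0.068). *Ccr4*, the CCL17 and CCL22 receptor, was 2559, 2558 and 2584 with vehicle and 1107, 2316 and 2428 with melatonin, and its change of -0.48 did not pass (SE 0.26, adjusted p = 0.15). Melatonin replicate 1 stood apart from the others there. *Ccr4* changed by -1.21 with it as the only melatonin sample and by -0.11 without it (adjusted p = 0.16). *Xcr1* was between 615 and 684 with vehicle and between 579 and 802 with melatonin, a change of 0.00 (SE 0.13, adjusted p = 0.99). *Cxcr6* was between 41196 and 47642 with vehicle and between 33628 and 54053 with melatonin, a change of -0.12 (SE 0.16, adjusted p = 0.56). *Cxcr6* passed as lower without melatonin replicate 1 (-0.33, adjusted p = 0.0092), and its change was 0.28 with that replicate as the only melatonin sample.

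**Figure D4:**
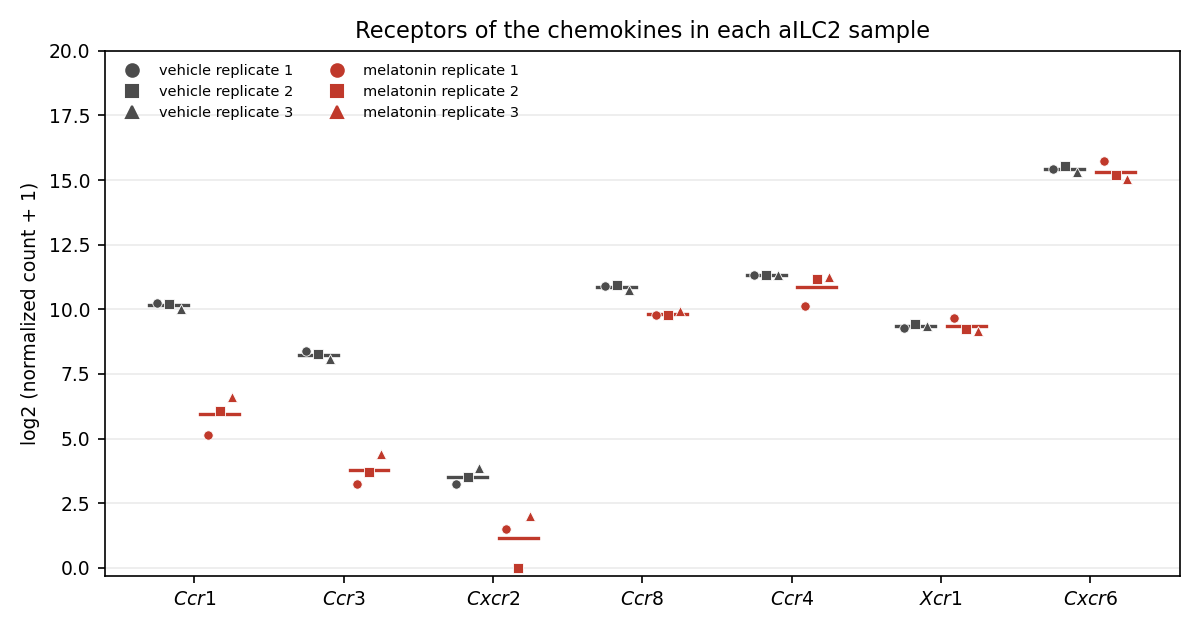
Level of 7 receptors of the chemokines in each sample, as log2 of the normalized count plus 1, with points for samples and short lines for group means. The melatonin samples of *Ccr1*, *Ccr3*, *Cxcr2*, *Ccr8* and *Ccr4* lie below the vehicle samples, while those of *Xcr1* and *Cxcr6* lie on both sides.

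Both proteases that shed CXCL16 were higher with melatonin. *Adam10* was 2444, 2552 and 2478 with vehicle and 4017, 3651 and 3591 with melatonin, a rise of 0.59 (SE 0.08, adjusted p = 0.00042). *Adam17* was 2637, 2844 and 2734 with vehicle and 5462, 4927 and 4085 with melatonin, a rise of 0.81 (SE 0.11, adjusted p = 0.00050). Of 18 genes of chemokine receptor signalling, 1 was higher and 7 were lower, against 24.5% and 24.7% of all genes tested. Among those called, the largest changes were those of *Rgs1*, a brake on G protein signalling (-1.55, adjusted p = 3e-05), *Gnai2*, an inhibitory G protein subunit (-0.59, adjusted p = 0.00056), and *Arrb2*, which desensitises receptors (-0.53, adjusted p = 0.0023). Of 5 atypical chemokine receptors, only *Ccrl2* was tested and it was not called (0.78, adjusted p = 0.15).

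Of 31 other chemokine ligand genes, 12 were listed and 11 were tested, with 2 higher and 5 lower. Of all genes tested, 24.5% were higher and 24.7% lower. Besides *Ccl6* and *Ccl9*, the lower genes were *Ccl24*, which encodes eotaxin-2, *Cxcl5* and *Ccl8*, and all 3 were scarce. *Ccl24* was 27.1, 30.9 and 18.9 with vehicle and 0, 1.09 and 14.1 with melatonin, and its call was lost without vehicle replicate 1 (adjusted p = 0.055), vehicle replicate 2 (0.069) or melatonin replicate 2 (0.065), and in a fit without the trend (0.055). *Cxcl5* was at most 15.9 with vehicle and 1.01 with melatonin, and *Ccl8* was at most 12.1 and 0. Both thus passed the filter through vehicle samples only, which favoured a lower value with melatonin. Beside *Cx3cl1*, the other higher gene was *Ccl25*, the CCR9 ligand, at 81.2, 76.8 and 68.2 with vehicle and 140, 131 and 123 with melatonin, a rise of 0.79 (SE 0.17, adjusted p = 0.0049). *Ccl2* (-2.24, adjusted p = 0.14) and *Ccl7* (-2.02, adjusted p = 0.11), monocyte chemokines, did not pass.

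Markers of other cell types that make chemokines moved with the treatment too, although the sort removed cells with CD3ε, CD4, CD5, T cell receptors, B220, CD335, CD11b, CD11c, Gr-1 and FcεRIα. The counts of called markers stand beside 24.7% of all genes tested that were lower and 24.5% that were higher. Among the markers called lower, *Adgre1*, *Batf3*, *Cd3d*, *Trac*, *Ncr1*, *Tbx21*, *S100a8*, *Cxcr2*, *Scgb1a1*, *Sftpc* and *Krt8* passed the filter on low values through vehicle samples only. For these the filter favoured a lower value with melatonin. Of 10 macrophage markers, 8 were tested and 4 were lower, and their sum was between 1380 and 1600 with vehicle and 364, 811 and 847 with melatonin. *C1qa* and *C1qb* were at 0 in all melatonin samples and at most 15.9 and 7.50 with vehicle, and *Marco* was not listed. Of 8 dendritic cell markers, 5 were tested and 3 were lower, with sums from 4044 to 4291 and from 865 to 1127, mostly *Ccr7* and *Xcr1*. Of 9 T cell markers, 6 were tested and 5 were lower, with sums from 5115 to 5500 and from 2228 to 2785, and *Cd4*, *Cd8a* and *Cd5* were not listed. Of 7 NK cell or ILC1 markers, 4 were tested and all 4 were lower, with sums from 6020 to 7285 and from 85.0 to 214, mostly *Gzma*. *Klrb1c* and *Eomes* were too low to be tested, at most 9.37 and 5.60 with vehicle and 0 and 3.02 with melatonin. *Ncr1*, the CD335 gene, was between 101 and 114 with vehicle and at most 1.01 with melatonin. The methods give a purity above 95% after the sort, and the part of these cell types in the chemokine results was not tested.

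Neutrophil markers summed to between 289 and 320 with vehicle and between 2.80 and 14.2 with melatonin, mostly *Mmp8*, with 3 of 4 tested lower and *Ly6g* not listed. Eosinophil markers summed to between 312 and 357 and between 13.1 and 38.2, mostly *Ccr3*, with 1 of 2 tested lower and *Epx* and *Prg2* not listed. B cell markers summed to between 289 and 322 and between 131 and 162, nearly all *Cd79b*, which was the only one tested and was lower, and *Ms4a1* and *Pax5* were not listed. Mast cell or basophil markers summed to between 9.37 and 41.1 and between 6.54 and 54.3, the 2 tested did not pass, and *Fcer1a* and *Ms4a2* were not listed. Epithelial markers summed to between 895 and 2238 with vehicle and between 1039 and 1237 with melatonin, with 1 of 5 higher and 3 lower, and vehicle replicate 3 stood apart with 1045 of *Scgb1a1*. Of 7 endothelial or fibroblast markers only *Pecam1* was listed, and it was lower. Vehicle replicate 3 had the lowest value of the vehicle samples in *Ccl3*, *Ccl22*, *Cxcl2* and *Cxcl3*, and all 9 calls held without it.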

How the data were processed

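Activated ILC2s from lungs of IL-33-challenged mice were cultured with melatonin or DMSO, and 3 samples per group were sequenced. The authors trimmed reads in Partek Flow 12.9.0 and aligned them with STAR to mm39 (GRCm39). An expectation-maximization algorithm then gave a value to each gene of Gencode M33. The methods state that genes staying under 10 counts in every sample were left out of the analysis. The deposited values nevertheless included genes under 10 normalized counts in every sample, such as *Ackr2*, at most 4.67. Of the 16381 genes listed, 14419 reached 10 in any sample. The deposited values are a signal: the authors' estimated counts divided by a median ratio size factor. The value of 1 read was found from the spacing of the values. Between 71.9% and 73.5% of values below 60 per sample were whole multiples of it at a tolerance of 0.01. The main fit was therefore not run on counts. Estimated reads were used for the read ratios with their intervals, and for voom as an alternative. Names, positions and lengths came from release M39 of the annotation for 16334 of 16381 genes. Input RNA was 10 ng per the labels and 10 pg per the methods.

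Genes reaching 10 in at least 1 sample were fitted with limma 3.58.1 under R 4.3.3 (lmFit, eBayes with trend) on log2 of the value plus 1, by treatment alone, with Benjamini-Hochberg adjustment over the 14419 genes tested. Intervals of read ratios are exact binomial at 95%, and the floor is 3 reads. The fit was tested on simulated data. The members and lists were chosen with earlier results of these data known. Named are all 10 members and 7 receptors, up to 3 genes per other pathway list by size of change among called genes averaging 100 or more, and the 5 genes most correlated with the most abundant member. Some listed genes are not reported here. Other genes given with values were added after their values were seen. Alternatives changed the pseudocount, filter, scaling, trend, weights, length correction, pairing and samples. Tables used scipy 1.17.1, numpy 2.4.6 and pandas 2.3.3, and plots matplotlib 3.10.9.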

Additional observations from a re-analysis of the deposited data

How the results depend on the processing

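Over 171 refits of the 10 chemokines under other settings, 167 kept their direction and side of the threshold, 1 lost the call (*Ccl5* under the length correction), 3 gained it (*Cxcl2*) and 0 reversed. These refits and gains include the fit of the Y-transcript samples, where melatonin replicate 1 is the only melatonin sample. The number called lower was between 8 and 10, except that only 2 remained when a mean of at least 100 was required, since no more of the 10 were then tested. Leaving out samples in turn gave between 8 and 10, and the 8, without vehicle replicate 2, lacks *Ccl1*, which was then not tested. Over all genes, 3529 were higher and 3565 lower. An adjusted p under 0.01 left 2188 and 2267, and a log2 change of at least 1 left 866 and 1392. The length correction gave 2628 higher and 4214 lower, so that the higher share of calls went from 49.7% to 38.4%. Same-numbered samples did not deviate together (correlations -0.05, 0.01 and -0.05), so no pairing by number was seen with this measure. The Y-linked *Ddx3y* was at 0 in melatonin replicates 2 and 3 but not in vehicle replicates 2 and 3. A replicate block gave 3160 higher, 3278 lower and the same count of 9 chemokines. *Xcr1*, at 0.00, became -0.064 with quantile normalization, -0.092 with sample weights and -0.20 with the length correction. It was 0.30 with the Y-transcript samples alone and lay between -0.15 and 0.089 with single samples left out. *Cxcr6*, at -0.12, became 0.28 with the Y-transcript samples alone, an alternative chosen after seeing the data as was the canonical transcript length, and lay between -0.33 and 0.016 with single samples left out. Neither passed the threshold with all 6 samples, but *Cxcr6* passed as lower without melatonin replicate 1 (-0.33, adjusted p = 0.0092). The causes were not tested. Depth limits the scarce genes, where 3 reads equal between 2.80 and 3.28 normalized counts.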
